A study of Rattus norvegicus with 40 samples.

Results

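The comparison described here is between the hippocampus of aged, memory-unimpaired rats (AU) and that of young rats, taken over all stimulation conditions of the ex vivo experiment. All primary AU arrays and all primary young arrays were taken, 12 of each, from the 40 arrays of the series, and the 3 arrays of a rat were averaged, which left 4 AU rats and 4 young rats. The rats were male Long-Evans rats, an outbred strain. The young rats were 5 to 6 months old, and the sample labels gave the AU rats as 25 to 26 months old, whereas the treatment protocol gave 24 to 25 months. AU rats were those whose performance in the Morris water maze, a test of spatial memory, lay in the range of young rats, and the aged rats that performed worse (AI, aged impaired) are set beside them only where they bear on an AU value. The labels name no transgene or drug in any group. Live slices of 1 mm from each rat were split between sham (the coil 20 cm away), 1Hz and intermittent theta burst (iTBS) magnetic stimulation at 15% of the stimulator's output, so that each rat gave 1 array to each treatment. The labels gave RNA collection at 1 hour after treatment and the protocol gave a rest of 2 hours. Because every array came from slices that had been cut, kept in artificial cerebrospinal fluid and stimulated or sham stimulated, the values describe aged and young slices after that handling and not tissue frozen at once.

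The aged rodent hippocampus is known for a gain of innate immune transcripts. Microglia, the resident phagocytes of the brain, are the main source of complement C1q and of the antigen presentation genes, while astrocytes contribute complement C3 and C4. Major histocompatibility complex (MHC) class II molecules show peptides to helper T cells and class I molecules show peptides to cytotoxic T cells, and in the rat both families carry the prefix RT1. The production of new granule neurons in the dentate gyrus, marked by doublecortin (Dcx), declines with age, and collagens of the leptomeninges and vessels are made at a lower rate in older animals.

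Levels are the authors' z-scores of log intensity, multiplied here by the mean standard deviation of the log2 intensities on the 24 arrays, 4.11, so that a difference of 1 is close to a doubling of signal. A level of 0 is the mean of an array. Differences are AU minus young and are given with the standard error of the limma fit on rat means (n = 4 rats in each group). Levels of different genes are not set against each other, because each probe has its own brightness. In whole hippocampal slices, more cells of a type and more RNA per cell cannot be told apart.

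One array stood apart in its immune genes. The array labelled young sham rat 2 had a mean level of 4.72 over the 9 MHC class II presentation genes measured, while the other 11 young arrays lay between -0.39 and 0.27 and the 12 AU arrays between 0.08 and 1.59. On that array 43 genes were over 4 units above the median of the other young arrays and 0 were over 4 units below it. RT1-Da was at 7.13 there and between -4.75 and -1.38 on the others, and Cd74 was at 9.14 against -1.12 to 1.18. Its highest correlation over genes was with the iTBS array of AI rat 1 (r = 0.992), and its highest with another array of young rat 2 was 0.980. That best match lay in another age group, which was also true of others among the 24 arrays (10 in all). Its r of 0.9918 was however above the best match of any of the other 23 arrays (at most 0.9914). The AI array in turn had it as best match, its highest r with its own rat being 0.986. C3 was at 7.73 and C4b at 8.47 on the young array, and the means of AI rat 1 were 7.77 and 8.48. Whether the slice or the label was exchanged was not tested. Results are therefore given without this array, young rat 2 then being the mean of its 1Hz and iTBS arrays, and the value with all 24 arrays is given beside those that it moved by over 1.5 times. The array was set aside for its high immune genes, so leaving it out by itself raises AU minus young for those genes. Their overlap counts without it are therefore no independent evidence of a difference. Counted over all genes, other arrays lay farther from the rest. The young iTBS array of rat 2 had 421 genes over 2 units from the median of the other arrays and the smallest spread of log2 intensity (3.42), the 1Hz array of AU rat 3 had 307 and the young sham array of rat 2 had 222. With young rat 2 left out whole, 0 probes were called and Cdh1 differed by 3.09 ± 0.24 (SE, adjusted p = 0.0955 by limma). The array labelled young iTBS rat 4 had a mean of 2.33 over 12 meningeal and fibroblast genes, against -0.37 to 1.00 on the other young arrays.

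**Figure D1:**
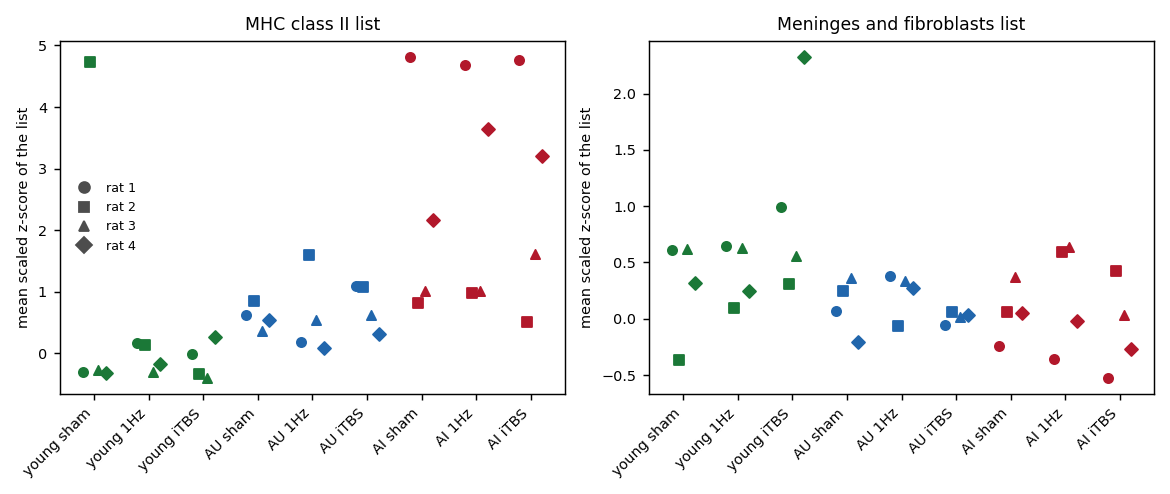
Mean scaled z-score of the MHC class II list (left, 9 genes) and of the meninges and fibroblasts list (right, 12 genes) on each of the 36 primary arrays, by age group and treatment, with a marker shape for each rat number. The young sham array of rat 2 sits at 4.72 on the left, near the AI rat 1 arrays, and the young iTBS array of rat 4 sits at 2.33 on the right.

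Over all probes, almost no difference between the AU and young hippocampus passed the adjusted threshold. With all 24 arrays, 0 of 45598 probes passed an adjusted p of 0.05 in limma (Benjamini-Hochberg), 399 had an unadjusted p under 0.05, and the criteria of the study's methods, with a first screen for differences between groups and a false discovery rate of 0.3, took 21 probes as higher and 18 as lower. Without the young sham rat 2 array 1 probe passed (0.00219% of those tested), which was higher in AU and measures Cdh1, and 479 had an unadjusted p under 0.05. With rat number, which follows the slide, as a block in limma, 1464 probes had an unadjusted p under 0.05 with all 24 arrays. Without the array 1516 had, and 0 passed the adjusted threshold either way. Of 16581 genes, taken with 1 probe each, 74 (0.446%) had all 4 AU rats above all 4 young rats and 75 (0.452%) had all AU rats below, again without that array. With it these counts were 47 (0.283%) and 63 (0.38%). By an unadjusted p under 0.05 in limma, 93 genes (0.561%) were higher and 103 (0.621%) lower without the array, and 59 (0.356%) and 83 (0.501%) with it. The median difference over all these genes was -0.015 without the array, and 7465 of them were higher in AU. Simulated data had 4 rats in a group, the spread of these rats and many probes changed at once. There 20.9% of probes changed by 1 unit, 70.1% of those changed by 2 and 93.9% of those changed by 4 were called. Many true changes loosen the Benjamini-Hochberg threshold, so these shares do not carry over to the real data, which gave almost no calls. Cdh1 at 2.89 ± 0.27 (SE) was not called with all 24 arrays, nor RT1-Da at 2.41 ± 0.35 without the young sham rat 2 array. Differences near 1 were mostly out of reach even in the simulation, and differences over 2 could go uncalled in the real data.

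Cdh1, which encodes E-cadherin, an epithelial cell adhesion protein, gave the clearest difference. Its levels were -5.75, -5.16, -5.23 and -5.47 in young rats 1 to 4 and -1.92, -2.74, -2.40 and -2.52 in AU rats 1 to 4. The AU rats all lay above the young rats, by 3.84, 2.42, 2.84 and 2.95 in rat numbers 1 to 4. The difference was 3.01 ± 0.22 (SE, 95% interval 2.50 to 3.52, adjusted p = 0.0211 by limma). With all 24 arrays it was 2.89 ± 0.27 (adjusted p = 0.122), and with rat number as a block, without the array, the adjusted p was 0.797. The call was also lost when any single rat was left out (adjusted p from 0.059 to 0.187), without the iTBS array of AU rat 3 (0.475), with 12 rats in the fit, and under both other scalings, where the difference was 3.11 (75th percentile) and 0.70 (normexp and quantile). The probe was not well above background on any of the 11 young arrays kept and was so on 11 of 12 AU arrays, so the young level is a bound. On processed signals scaled to each array's 75th percentile, AU was at least 4.01-fold brighter than the background limit of the young arrays. The exception among the AU arrays was the iTBS array of rat 3, at -5.18, where the others ranged from -3.12 to -0.74. AI rats were at -3.47, -0.92, -0.96 and -1.64. Cdh1 was outside the rule for naming genes, which asks for signal above background on all 12 arrays of a group, and is named because it was the only call.

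Chad and Car3 had the smallest p among the genes above background and higher in AU with all 24 arrays, and without the young sham rat 2 array C3 came first, then Chad, RT1-Da, Cd74 and Car3, none of which passed the adjusted threshold in the fit on rat means. Chad, which encodes the matrix protein chondroadherin, was at -2.41, -3.08, -2.52 and -2.14 in young rats 1 to 4 and -0.47, -0.79, -1.03 and -1.11 in AU rats 1 to 4, with no overlap and a difference of 1.69 ± 0.24 (SE, 95% interval 1.14 to 2.24). Car3, a carbonic anhydrase, was at -0.11, -0.29, -0.055 and 0.33 in young rats 1 to 4 and 0.73, 1.01, 1.12 and 0.79 in AU rats 1 to 4, and again no young rat reached the lowest AU rat, with a difference of 0.95 ± 0.19 (SE). Both kept this order with all 24 arrays, where the differences were 1.57 and 0.87. Aspg, an asparaginase and lysophospholipase, differed by 1.15 ± 0.36 (SE), Grifin, a galectin-related protein, by 1.01 ± 0.29, and Tbx4, a T-box transcription factor, by 0.61 ± 0.16, and in each the AU rats lay above the young rats with and without the array. Within rat numbers 1 to 4, Chad differed by 1.95, 2.29, 1.49 and 1.03 and Car3 by 0.84, 1.30, 1.18 and 0.47.

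**Figure D2:**
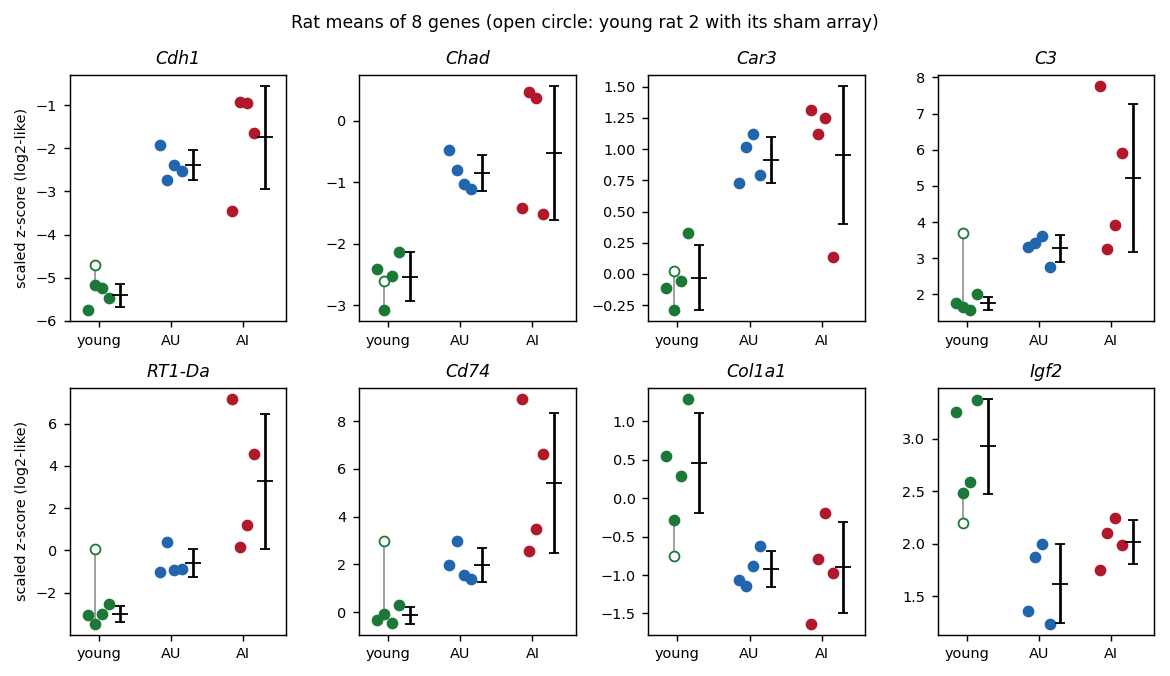
Mean scaled z-score of each rat for 8 genes in young, AU and AI rats, with the group mean ± SD (n = 4) beside the points in black. The open circle is young rat 2 with its sham array included and the filled circle joined to it is the same rat without that array, which lies near the other young rats for C3, RT1-Da and Cd74 while the open circle reaches the AU range.

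Among the genes lower in AU by the naming rule, Slc5a7 had the largest difference with all 24 arrays. Slc5a7, the high-affinity choline transporter of cholinergic terminals, was at -2.53, -3.25, -1.90 and -1.16 in young rats 1 to 4 and -3.81, -4.10, -4.89 and -2.82 in AU rats 1 to 4, and AU was lower in 4 of 4 rat numbers. With all 24 arrays its groups did not overlap, and the difference was -1.85 ± 0.47 (SE), against -1.69 ± 0.53 without the array, where young rat 2 was at -3.25 and the groups overlapped. It was well above background on 7 of 12 AU arrays. Chrna5, a nicotinic acetylcholine receptor subunit, was at -1.59, -1.03, -2.25 and -2.95 in young rats 1 to 4 and -3.17, -3.54, -3.56 and -3.12 in AU rats 1 to 4, lower in every AU rat than in any young rat, with a difference of -1.39 ± 0.38 (SE). It was well above background on 8 of 12 AU arrays and 11 of 12 young arrays, so that the AU level lies partly at the background. Chrna5 was looked at because a fit on the single arrays, with slide as a block, rat as a random block and the young sham rat 2 array left out, called it (adjusted p = 0.0308). The correlation within rats in that fit was 0.097, so the 3 arrays of a rat counted almost as separate replicates and its p-values may be too small. With rat number as a block on rat means, 0 probes were called. The fit on single arrays called 12 probes (0.0263% of those tested), 9 higher and 3 lower in AU. Those with a symbol were Cdh1, C3, Car3, Slc39a12 (a zinc transporter), Cd302 (a C-type lectin receptor), Dmrta2 (a transcription factor) and Chrna5, of which Slc39a12, Cd302 and Dmrta2 differed by 1.46 ± 0.50, 0.70 ± 0.28 and -0.62 ± 0.30 in the fit on rat means, the rats of both groups overlapping for each. Chrna5 and these 3 were named after their values were seen. Other genes the rule named as lower in AU were Myh1 (a skeletal muscle myosin, -1.09 ± 0.26, well above background on 12 young arrays but on 7 of 12 AU arrays), Cdh7 (a cadherin, -0.98 ± 0.23), Olr59 (an olfactory receptor, -0.86 ± 0.21) and Hlx (a homeobox factor), which differed by -0.54 ± 0.14 with all 24 arrays and by -0.36 ± 0.23 without the one.

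The genes that present peptides on MHC class II were higher in AU once the young sham rat 2 array was left out, in direction though not at the adjusted threshold. All 9 measured members were higher in AU, with a median difference of 0.39 against -0.015 over all genes, and 3 of them (RT1-Da, Cd74 and RT1-Bb) had no overlap between groups, where 0.446% of all genes had none in this direction. With that array included the median was 0.24, 6 of 9 were higher and 0 of 9 were free of overlap. The members did not move alike. Ciita, the class II transactivator, differed by 0.0069, RT1-DMa by 0.12 and RT1-DMb by 0.17 without the array, and by -0.21, -0.0034 and -0.096 with all 24 arrays. RT1-Ba differed by 0.29 and was well above background on only 4 of 12 AU arrays. RT1-Da, the alpha chain of the rat DR-like molecule, was at -3.03, -3.45, -3.01 and -2.51 in young rats 1 to 4 and -0.99, 0.42, -0.93 and -0.87 in AU rats 1 to 4. Every AU rat was higher, AU rat 2 the highest, and the difference was 2.41 ± 0.35 (SE, 95% interval 1.61 to 3.20). Cd74, the invariant chain that guides class II molecules to the endosome, was at -0.31, -0.075, -0.46 and 0.32 in young rats 1 to 4 and 1.96, 3.00, 1.55 and 1.41 in AU rats 1 to 4, and its difference was 2.11 ± 0.36 (SE, 95% interval 1.30 to 2.92). RT1-Bb, a beta chain, was at -2.18, -2.59, -2.36 and -1.97 in young rats 1 to 4 and -1.69, -0.60, -1.25 and -1.41 in AU rats 1 to 4, a difference of 1.04 ± 0.26 (SE). RT1-Db1, another beta chain, differed by 0.58 ± 0.23 with overlap, and Ctss, the protease that trims the invariant chain, by 0.39 ± 0.19. With all 24 arrays the differences of RT1-Da and Cd74 were 1.53 ± 0.69 and 1.34 ± 0.75, and those of RT1-Bb, RT1-Db1 and Ctss were 0.38, 0.065 and 0.24. RT1 genes are close paralogs, and the signal of 1 probe may include that of another.

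The upstream sequence of the class II genes is shown because these genes are known to be switched on together through shared promoter boxes. The windows are from the RefSeq promoter table (GRCr8, 250 bases before to 50 after the annotated start), read 5′ to 3′ along the gene, with the X box letters (AGCAAC, any base, then GATG) and the Y box letters CTGATTGG in capitals where they occur, both strands searched.
RT1-Da, chr20:4515320-4515382, plus strand: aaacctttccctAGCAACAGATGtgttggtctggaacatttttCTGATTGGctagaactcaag
RT1-Db1, chr20:4560226-4560287, minus strand: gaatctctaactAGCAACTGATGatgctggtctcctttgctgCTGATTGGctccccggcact
RT1-Bb, chr20:4604163-4604194, minus strand: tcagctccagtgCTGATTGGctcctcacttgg
RT1-Ba, chr20:4576999-4577030, plus strand: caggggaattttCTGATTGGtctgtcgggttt
The Y box letters occurred in 3.50% of the 33469 promoters of the table and the X box letters in 0.0478%. RT1-Da and RT1-Db1 held both, RT1-Bb and RT1-Ba held the Y box letters alone, and the promoter of Cd74 held neither in this window. The Y box letters were not particular to class II genes. They also occurred in the promoters of the class I genes RT1-A1, RT1-A2 and RT1-CE5, without the X box letters, and not in that of B2m, of the class I list.

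Complement genes were also higher in AU without that array. Of 14 measured members of the complement list, 12 were higher in AU, the median difference was 0.29, and 3 (C3, C4a and C4b) had no overlap, against 0.446% of all genes. C3, the central opsonin of the cascade, was at 1.75, 1.66, 1.58 and 2.01 in young rats 1 to 4 and 3.30, 3.43, 3.62 and 2.75 in AU rats 1 to 4, and every AU rat was above every young rat, by 1.52 ± 0.22 on average (SE, 95% interval 1.03 to 2.02). The differences of C3 within rat numbers 1 to 4 were 1.55, 1.76, 2.04 and 0.74. C4a was at -0.56, -1.64, -1.22 and -0.59 in young rats 1 to 4 and 0.027, 0.10, 0.59 and -0.33 in AU rats 1 to 4 (1.10 ± 0.30, SE) and C4b at 2.30, 1.62, 1.66 and 2.27 in young rats 1 to 4 and 3.03, 3.37, 3.11 and 2.34 in AU rats 1 to 4 (1.00 ± 0.27, SE), with AU rat 4 the lowest AU rat in both and only just above the highest young rat for C4b, and as near-identical copies of complement C4 the pair may share signal. C1qa, a chain of C1q, differed by 0.53 ± 0.24 with overlap. The members did not move alike, as C1s and C5ar1 differed by -0.28 and -0.021 and C2 by 0.012. With all 24 arrays 9 of 14 members were higher, the list's median was 0.16 and 0 members were free of overlap. C3 then differed by 1.02 ± 0.45 (SE), young rat 2 being at 3.69 and above all AU rats. C4a, C4b and C1qa then differed by 0.51, 0.43 and 0.22, and C1s, C5ar1, C2 and C1qc by -0.31, -0.18, -0.42 and -0.072.

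Class I presentation and interferon-induced genes were also higher in AU without that array, with the larger differences in rat numbers 2 and 3. Number 2 holds the young rat whose sham array was left out. Its median differences were 0.68 (class I) and 0.67 (interferon) without that array, but -0.28 and -0.069 with it, so its place among the larger differences rests on leaving the array out. Of the class I list, 16 of 16 measured members were higher in AU without the array, with a median of 0.39 (0.15 with it), and 3 (RT1-A1, RT1-A2 and RT1-S3) had no overlap, against 0.446% of all genes and 0 of 16 with all arrays. RT1-A1, a class I heavy chain, was at 4.37, 4.07, 4.28 and 4.49 in young rats 1 to 4 and 4.59, 5.08, 5.39 and 4.86 in AU rats 1 to 4, a difference of 0.68 ± 0.21 (SE). RT1-A2 differed by 0.64 ± 0.20, and the class I genes RT1-CE5 and RT1-CE10 by 0.90 ± 0.31 and 0.73 ± 0.30 with overlap. RT1-A1, RT1-A2, RT1-CE5 and RT1-CE10 differed by 0.28, 0.26, 0.38 and 0.44 with all 24 arrays. In the interferon list 21 of 23 were higher, with a median of 0.39 (0.17 with all arrays), and 1 had no overlap, against the same 0.446%. That was Ifi27, an interferon-inducible mitochondrial protein, at 2.90, 2.65, 2.70 and 3.04 in young rats 1 to 4 and 3.21, 4.47, 4.70 and 3.25 in AU rats 1 to 4, and its groups did not overlap with all 24 arrays either. AU rats 2 and 3 were well above the rest and AU rats 1 and 4 only just above the young rats, and the difference was 1.08 ± 0.36 (SE). Irf7, the interferon regulatory factor that amplifies the type I response, differed by 0.88 ± 0.31, Ifit3 by 0.77 ± 0.29 and Oas1a, an RNA-sensing synthetase, by 0.81 ± 0.37. For all of these AU rat 3 was the highest AU rat, and the list's median difference within rat numbers 1 to 4 was 0.10, 0.67, 0.93 and -0.055.

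The interferon-stimulated response element is the short sequence that interferon-activated factors bind, and it is shown for the 4 members of that list described here. The letters searched were GAAA, any 2 bases and GAAA again on both strands, in capitals here, and they occurred in 3.92% of the RefSeq promoters (GRCr8).
Ifi27, chr6:128355131-128355249, plus strand: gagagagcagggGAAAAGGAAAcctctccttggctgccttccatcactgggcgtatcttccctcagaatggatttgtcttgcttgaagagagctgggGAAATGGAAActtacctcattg
Irf7, chr1:205800071-205800104, minus strand: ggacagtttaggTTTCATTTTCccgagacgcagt
Ifit3, chr1:241527270-241527303, plus strand: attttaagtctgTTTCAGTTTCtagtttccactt
Oas1a, chr12:41330413-41330452, plus strand: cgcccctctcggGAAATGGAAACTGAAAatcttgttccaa
In Irf7 and Ifit3 the match was on the strand opposite to the gene, Ifi27 held 2 separate matches and Oas1a 2 overlapping ones, on the strand of the gene. The first listed start of each gene was used. For Irf7 the window lies inside the annotated span of the gene (chr1:205796956-205800543) and not before its outermost start. For Oas1a the window crosses the outermost annotated start (chr12:41330423), and both matches lie after it.

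Genes of activated phagocytes and markers of resting microglia were also higher in AU, in direction though not at the adjusted threshold. In the lysosome and lipid phagocyte list 13 of 16 measured genes were higher in AU, with a median of 0.35 (0.19 with all arrays), and 6 (Tyrobp, Trem2, Clec7a, Spp1, Ctsd and Ctsz) had no overlap, against 0.446% of all genes. Only Spp1 had none on all 24 arrays. Tyrobp, the signalling adaptor of microglial receptors, was at 4.66, 4.40, 4.34 and 4.55 in young rats 1 to 4 and 5.06, 5.29, 5.06 and 4.80 in AU rats 1 to 4 (0.57 ± 0.17, SE), and Trem2, a lipid receptor that signals through it, was at 4.21, 3.79, 4.11 and 4.19 in young rats 1 to 4 and 4.57, 4.69, 4.69 and 4.36 in AU rats 1 to 4 (0.50 ± 0.17, SE). Clec7a, a pattern recognition receptor, differed by 0.56 ± 0.20 and Spp1, osteopontin, by 0.46 ± 0.17, the latter well above background on only 8 of 12 AU arrays. Tyrobp and Clec7a differed by 0.30 and 0.19 with all 24 arrays. Ctsz, a lysosomal protease, differed by 1.01 ± 0.43, but young rat 3 was at -1.55 through its iTBS array alone, at -5.51. Among chemokines and interleukins 16 of 19 were higher, with a median of 0.34 (0.12 with all arrays) and 0 free of overlap, led by Il1a at 0.82 ± 0.27 (0.54 with all arrays). Il1b differed by 0.93 ± 0.47 (0.49 with all arrays). Il18 differed by 0.71 ± 0.30, but young rat 4 was at 0.12 through its iTBS array at -2.67, and the difference was 0.26 in sham, 0.092 in 1Hz and 1.61 in iTBS. Leaving out that array too gave 0.36 for Il18. Of 11 measured markers of homeostatic microglia, 10 were higher in AU with a median of 0.23 (0.062 with all arrays). The summed level of these microglial markers was 2.40 to 2.66 in the young rats and 2.53 to 2.93 in the AU rats as a mean over the list, and its part in the immune differences was not tested. The T cell and cytotoxic list had a median of 0.027, with array means of -3.36 to -2.51 in young and -3.28 to -2.47 in AU.

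**Figure D3:**
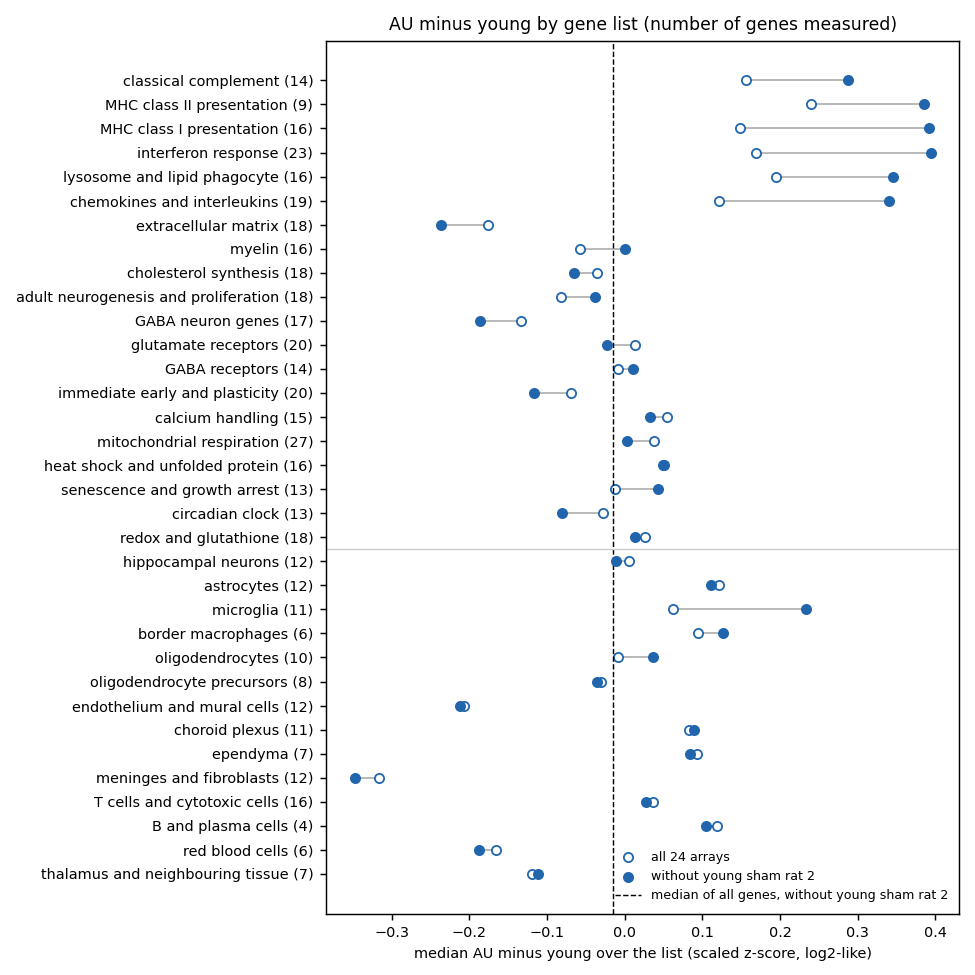
Median AU minus young difference of the members of each gene list, with all 24 arrays (open) and without the young sham rat 2 array (filled), the function lists above the grey line and the cell type marker lists below it. The 6 immune lists at the top lie between 0.29 and 0.39 without the array and between 0.12 and 0.24 with it, the extracellular matrix and meningeal lists lie between -0.35 and -0.18 either way, and most neuronal and glial lists lie near the median of all genes (dashed).

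Fibrillar collagens and other genes of the meninges were lower in AU. In the extracellular matrix list 15 of 18 genes were lower without the young sham rat 2 array, with a median of -0.24 and 3 (Col1a1, Col1a2 and Dcn) free of overlap, against 0.452% of all genes in this direction. With all 24 arrays the median was -0.18 and 0 of 18 were free of overlap. That array was the lowest young array for this list (0.93, others 1.39 to 2.30), so leaving it out by itself lowers AU minus young here. Col1a1, a chain of type I collagen, was at 0.55, -0.29, 0.29 and 1.29 in young rats 1 to 4 and -1.07, -1.14, -0.88 and -0.62 in AU rats 1 to 4. All AU rats lay below the young rats, young rat 4 was the highest, and the difference was -1.38 ± 0.32 (SE, 95% interval -2.11 to -0.66). Col1a2, the partner chain, differed by -0.88 ± 0.30, Col3a1, type III collagen, by -1.25 ± 0.31 and Dcn, decorin, by -0.63 ± 0.19. Of 12 genes of meninges and fibroblasts, some of which are also in the matrix list, 9 were lower without the array, with a median of -0.35 and 4 free of overlap. With all 24 arrays the median was -0.32 and 1 was free of overlap. The young sham rat 2 array was the lowest young array for this list too (-0.37, others 0.10 to 2.33). Igf2, a growth factor made by the leptomeninges and choroid plexus, was at 3.25, 2.49, 2.59 and 3.37 in young rats 1 to 4 and 1.36, 1.88, 2.00 and 1.24 in AU rats 1 to 4, a difference of -1.31 ± 0.28 (SE), with no overlap on all 24 arrays either. The repeat of the AU sham rat 4 array was 2.47 higher for Igf2 and 1.42 higher for Dcn than the array used. The mean level of the meningeal list was 0.20 to 0.96 in the young rats and 0.03 to 0.24 in the AU rats, and since Dcn, Lum, Col1a1, Col1a2 and Col3a1 stand in both lists it is not a separate reading of that tissue. Of the meningeal genes outside the matrix list, the transporter gene Slc6a13 differed by -0.48, Mgp by -0.21 and Ptgds by 0.14, and the part of the tissue in the collagen differences was not tested. The choroid plexus list, which could also carry Igf2, had a median of 0.089. Vessel markers had a median of -0.21, with 11 of 12 lower and 0 free of overlap. Col1a1, Col3a1, Col1a2 and Igf2 were lower in AU also in rat numbers 1 to 3, which do not hold the young iTBS rat 4 array, and Col1a1 differed by -1.62, -0.85, -1.16 and -1.90 in numbers 1 to 4.

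**Figure D4:**
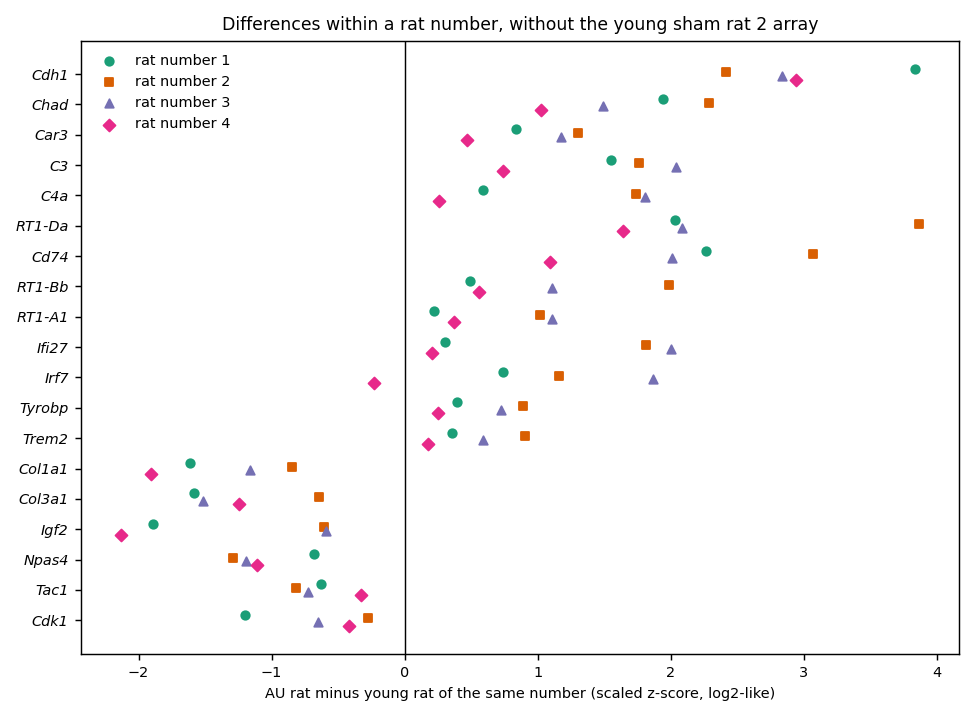
Difference between the AU rat and the young rat of the same number for 19 genes, without the young sham rat 2 array, where rats of one number were hybridised on the same slide except for the iTBS array of AU rat 4. The points of C3, RT1-Da, Cd74, Chad and Cdh1 lie right of 0 and those of the collagens, Igf2 and Npas4 lie left of 0 for all 4 rat numbers.

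Neuronal and neurogenic lists had medians between -0.19 and 0.010. Of 18 neurogenesis and proliferation genes measured, 9 were higher and 9 lower in AU, with a median of -0.039 (-0.082 with all arrays). Cdk1, the kinase that drives entry into mitosis, was the 1 member free of overlap, at -1.12, -1.80, -1.30 and -1.503 in young rats 1 to 4 and -2.31, -2.08, -1.95 and -1.92 in AU rats 1 to 4, a difference of -0.64 ± 0.19 (SE). Dcx, the marker of immature granule neurons, was at 1.11, 1.11, 1.40 and 1.29 in young rats 1 to 4 and 0.64, 1.14, -1.15 and 0.48 in AU rats 1 to 4, and AU rat 3 was low through its iTBS array alone, at -5.18. In the GABA neuron list 15 of 17 genes were lower in AU with a median of -0.19 and 0 free of overlap, led by Tac1, the substance P precursor (-0.63 ± 0.24, SE), and Cort, cortistatin (-0.56 ± 0.23). Sst, somatostatin, differed by -0.43 ± 0.24. In the activity-induced list 17 of 20 were lower with a median of -0.12 (-0.069 with all arrays) and 3 free of overlap (Npas4, Fos and Jun), against 0.452% of all genes, and with all 24 arrays Npas4 alone was. Npas4, an activity-dependent transcription factor of neurons, was at -2.69, -2.47, -2.04 and -1.67 in young rats 1 to 4 and -3.37, -3.75, -3.23 and -2.78 in AU rats 1 to 4, a difference of -1.07 ± 0.28 (SE) that kept its groups apart with all 24 arrays too, though it was well above background on 9 of 12 AU arrays. Fos, the classical immediate early gene, was at 4.14, 3.77, 4.19 and 3.99 in young rats 1 to 4 and 3.73, 3.62, 3.70 and 3.59 in AU rats 1 to 4, with differences of -0.41, -0.15, -0.49 and -0.40 within rat numbers 1 to 4. Wfs1, a marker of CA1 pyramidal cells, differed by -0.89 ± 0.42, and its array values in AU ran from -2.80 to 3.62, which overlapped the young arrays. Its lowest AU value was the sham array of rat 4, and the repeat of that array was 5.51 higher.

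The remaining lists held no member called and at most a small median. Glutamate receptors (median -0.023, 20 genes), GABA receptors (0.01, 14), calcium handling (0.033, 15), mitochondrial respiration (0.0034, 27), chaperones (0.05, 16), myelin (0.00047, 16), cholesterol synthesis (-0.065, 18), redox genes (0.013, 18), growth arrest genes (0.043, 13) and the circadian clock (-0.08, 13) had 0 members free of overlap. The hippocampal neuron markers had a median of -0.012 (0.0056 with all arrays) and were present in both groups, with rat means of 3.30 to 3.49 in young and 3.23 to 3.45 in AU over the list. Of 12 astrocyte markers 11 were higher in AU with a median of 0.11. Among them Gfap, the astrocyte filament protein that is known to increase with age, was at 3.41, 2.36, 2.70 and 2.34 in young rats 1 to 4 and 3.85, 3.23, 2.81 and 2.97 in AU rats 1 to 4, which overlapped, and its difference was 0.51 ± 0.31 (SE, 95% interval -0.20 to 1.22), or 0.33 with all arrays. S100b, another astrocyte protein, differed by 0.27 ± 0.18.

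Within treatments, the direction of some immune genes in sham rested on the young sham rat 2 array. With it, AU minus young in sham was -0.39 for RT1-Da, -0.14 for Cd74 and -0.57 for C4a, but 0.18 for C3, 1.01 for Ifi27 and 0.65 for Irf7. The 1Hz and iTBS contrasts do not hold that array. Without it, AU minus young of C3 was 1.79 in sham, 0.77 in 1Hz and 2.10 in iTBS, that of RT1-Da was 2.26 in sham, 1.88 in 1Hz and 3.08 in iTBS and that of Cd74 was 2.27 in sham, 1.505 in 1Hz and 2.66 in iTBS. Col1a1 differed by -0.95 in sham, -1.02 in 1Hz and -2.15 in iTBS and Igf2 by -1.02 in sham, -0.87 in 1Hz and -1.92 in iTBS, and the iTBS contrast holds the young iTBS rat 4 array with its high meningeal level. The sham contrast holds the AU sham rat 4 array, whose repeat was 2.47 higher for Igf2. Cdh1 differed by 3.23 in sham, 3.39 in 1Hz and 2.40 in iTBS. In the fit on arrays with rat as a random block, 0 of 45598 probes were called within sham, 1Hz or iTBS (444, 753 and 932 at an unadjusted p under 0.05 in limma), with the array kept, and 0 without it, where 684, 791 and 1092 had an unadjusted p under 0.05. Whether the age difference itself varied with treatment was tested as an interaction. With all 24 arrays 0 probes were called for 1Hz against sham and 0 for iTBS against sham (1313 and 3206 at an unadjusted p under 0.05), and without the young sham rat 2 array 0 and 1 were called, the 1 having no gene symbol here. The genes with the smallest p over all 24 arrays were Slc5a7 in sham (-2.86 ± 0.62, SE), Cdh1 in 1Hz (3.39 ± 0.78) and Car3 in iTBS (1.11 ± 0.26), and the olfactory receptor genes Or1j21 (1.32 ± 0.29) and Or13p5 (1.31 ± 0.27) for the 1Hz and iTBS interactions, none of which passed the adjusted threshold. The C3 difference was lower in 1Hz than in sham, an interaction of -1.02 ± 0.40 (SE, adjusted p = 1 by limma), which does not show that the treatments acted alike.

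**Figure D5:**
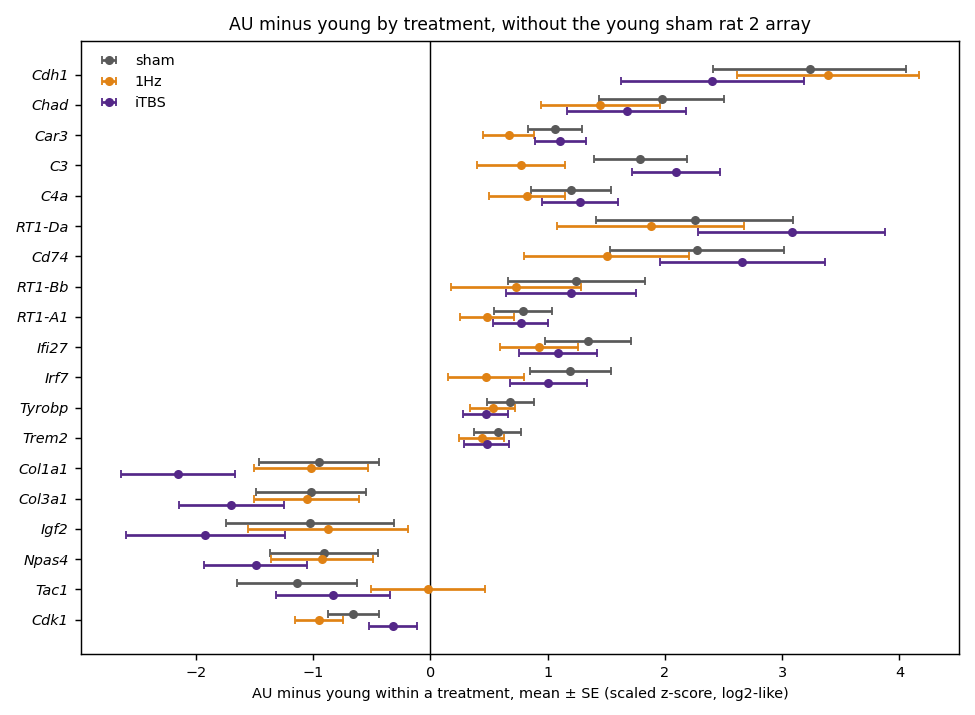
AU minus young difference within sham, 1Hz and iTBS for the same 19 genes, mean ± SE from the limma fit on arrays with rat as a random block, without the young sham rat 2 array (3 young and 4 AU arrays in sham, 4 and 4 in 1Hz and iTBS). The 3 treatments lie on the same side of 0 for 19 of 19 genes, with Tac1 in 1Hz nearest to it at -0.021.

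The AI rats, of the same age as the AU rats, are set beside them for the leading genes. C3 was at 7.77, 3.26, 3.93 and 5.91 in AI rats 1 to 4, so AI rats 1 and 4 were far above the AU rats while AI rats 2 and 3 lay nearer to them. RT1-Da followed the same order, at 7.16, 0.15, 1.19 and 4.57, as did Cd74, at 8.92, 2.55, 3.47 and 6.64. Col1a1 was at -1.63, -0.79, -0.19 and -0.97 and Chad at -1.43, 0.48, 0.37 and -1.52. In limma on 12 rats, 0 of 45598 probes differed between AU and AI at an adjusted p under 0.05 (1617 at an unadjusted p under 0.05), and the gene with the smallest p was Spp1, with an AU minus AI difference of -0.96 ± 0.16 (SE, adjusted p = 1.00). AU minus AI was -1.94 ± 0.82 for C3 and -3.86 ± 1.28 for RT1-Da. Both aged groups are compared with the same young rats, so their shared direction against young is no independent evidence.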

How the data were processed

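RNA of hippocampal slices was measured on 1-colour Agilent SurePrint G3 rat arrays, and per the file headers signals were extracted with Feature Extraction 12.0.3.1. The authors deposited a z score for each feature, made in DIANE 6.0 per the methods by subtracting the mean of an array's log intensity and dividing by its standard deviation, as recomputing them from the deposited intensity values showed (largest difference 0.005). z-scores were multiplied by 4.11, spots marked as outliers were left out (411 of 1094350 values), and 45598 probes were tested. A z-score divides by each array's own spread (3.42 to 4.53 in log2), which differs between arrays, and 71.8 to 92.4% of probes per array were well above background. The number of arrays, not a read depth, limits the precision.

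The main test was limma 3.58.1 (R 4.3.3) on rat means, with Benjamini-Hochberg adjustment over all probes. limma gives adjusted p-values, and no list was tested. Members and gene lists were chosen with earlier results of these data known. Genes were named by RefSeq accession (21109 probes, 16581 genes, the brightest probe of each), and 6958 probes with Ensembl identifiers were left unnamed. Per direction, the rule named up to 10 called genes with no overlap, filled to 5 by smallest p, with up to 4 per list and the first gene of each other contrast, with and without the young sham rat 2 array. Rat numbers 1 to 4 follow the slide. Same-numbered AU and young rats deviated together (r = 0.50, 0.73, 0.63 and 0.64), though rats of other numbers reached r = 0.71, and the numbers are taken to pair the rats, by slide and not by descent, and the blocked value is printed where it ends a call. The AU sham rat 4 array has a repeat, which entered an alternative only. Alternatives were another scaling (log2 of the processed signal minus the 75th percentile), normexp with offset 50 on the median signal (the mean signal was not used here) with quantile normalization, a filter on dim probes, blocks for rat and slide, 12 rats, 1 probe per gene, the methods' criteria (a false discovery rate of 0.3 among probes past the ANOVA), and leaving out each rat. The fit was tested on simulated rat means with 200 changed probes, 5 of the 45598 probes being called in error. Where a named gene had other probes, these had the same direction except for Gria1. Each group is 4 rats, so p-values of the fits on rat means measure the spread between these rats, which without the block for rat number includes the spread between slides. Those of the fits on single arrays also draw on the spread of arrays within a rat. The value of 1 list member is not reported here.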

Additional observations from a re-analysis of the deposited data

Results flagged for a closer look

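Several results held a rat far from the other 3 of its group by Dixon's ratio, which chance alone gives in about 1 of 20 groups. With the sham array included, young rat 2 stood apart for RT1-Da (0.075, others -3.03 to -2.51), RT1-Bb (0.055), RT1-Db1 (2.62), RT1-A1 (5.65) and RT1-A2 (5.78), and for Col3a1 it was low (-2.34, others -0.78 to -0.64). Among the AU rats, rat 2 was high for RT1-Da (0.42, others -0.99 to -0.87) and AU rat 3 for Il1b (4.51, others 2.49 to 2.77). Young rat 1 was low for RT1-CE10 (-2.03).

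AU rat 4 was low for Gria1, an AMPA receptor subunit, at 3.23 (others 4.59 to 4.75), through its sham array at -0.082, where the repeat array of the same sample lay 4.93 higher, and the other Gria1 probe gave an AU minus young difference of 0.075 where this one gave -0.45 (both without the young sham rat 2 array). The same rat was low for Per2, a clock component, at -1.12 (others 1.00 to 1.36), through its 1Hz array at -5.34.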

How the results depend on the processing

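The count of called probes in AU versus young was 0 with all 24 arrays and stayed 0 under the other scalings, the dim probe filter, the replicate block, the blocks for rat and slide, 12 rats, trend and robust moderation, the averaged repeat and leaving out each rat. It became 1 without the young sham rat 2 array, 1 when the young iTBS rat 4 array was also left out, 1 with 1 probe per gene (with all arrays, and 1 without that array; Cdh1, adjusted p = 0.0443 and 0.00766), 12 with slide and rat blocks without that array, 39 under the methods' criteria and 90 under these without the array. The cause of these changes was not tested beyond the smaller number of tests with 1 probe per gene. Without the array the replicate block gave 0 calls (Cdh1 adjusted p = 0.797), as did leaving out any rat, the other scalings, the dim probe filter, rat as a random block and 12 rats. Within treatments, sham gave 1 call without the array with slide blocked, and the iTBS interaction gave 1 without it. The median of the class I list moved from 0.15 to 0.39 without the array and to 0.41 with slide blocked as well. On leaving out each rat, it ran from 0.059 to 0.32 with all arrays and from 0.34 to 0.48 without that array, the interferon median from 0.043 to 0.31 and from 0.20 to 0.51, and the phagocyte median from 0.080 to 0.31 and from 0.26 to 0.40 (0.36 with slide blocked, without the array). With all arrays the difference of RT1-Db1 ran from -0.18 to 0.69 on leaving out each rat and reversed without young rat 1, 3 or 4 or AU rat 2, and that of Clec7a reversed under normexp and quantile normalization (-0.028). No other named gene turned direction in the comparison over all treatments. Within sham, C4a, C4b, RT1-Da and Cd74 differed by -0.57, -0.57, -0.39 and -0.14 with all arrays and by 1.20, 1.16, 2.26 and 2.27 without the young sham rat 2 array, and other immune genes, RT1-Bb, RT1-A1, Tyrobp and Il1b among them, turned direction too. Probes not well above background, such as Cdh1 in young rats, give only bounds.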
